A study of Mus musculus with 17 samples.

Results

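The comparison described here sets organoid clones labelled Pax6-KO against wild-type (WT) clones, all grown in expansion medium (EM), the culture medium for outgrowth. It takes in 4 of the series' 17 RNA-seq libraries, chosen by their labels: KO1 EM and KO2 EM, against WT1 EM and WT2 EM. The organoids are epithelial cultures of mouse lacrimal gland, embedded in a basement membrane extract, and polyadenylated RNA was sequenced after 7 days in EM. The other libraries used beside them are the same 4 clones moved to differentiation medium (DM) and 3 uncloned organoid lines in EM. Per the growth protocol, DM cultures had 2 days of EM and then 5 days of DM, while the text of the series gives 7 days of exposure for the clones, which leaves the length of their DM culture unsettled. Each label rests on 2 clones, and the labels used here do not say how Pax6 was edited, at which site, or whether the WT clones went through the same steps. Differences between the labels therefore cannot be told apart from differences between the clones picked, and p-values measure only the spread between libraries of these clones. The main fit takes the EM and DM libraries of a clone as independent, though they share that clone.

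The lacrimal gland secretes the watery layer of tears, and its acini, ducts and myoepithelial cells arise as buds of the conjunctival epithelium. Pax6, a paired-box transcription factor, is needed for the eye to form, for the lacrimal bud to be induced and for the identity of the corneal and conjunctival surface. Organoids of exocrine glands in outgrowth medium are commonly rich in basal and duct-like cells and keep little of the secretory programme.

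Pax6 was read first, in every library. Pax6 (ENSMUSG00000027168, chromosome 2, 105668900 to 105697364, GRCm38) had 172 and 272 CPM in labelled KO clones, against 245 and 276 CPM in WT clones. The levels overlapped between the labels, with labelled KO1 lowest and labelled KO2 within the range of the WT clones. The log2 fold change, labelled KO minus WT with its SE, was -0.23 ± 0.39, adjusted p = 0.744 in edgeR's quasi-likelihood test, in which p-values were adjusted over all genes tested by the Benjamini-Hochberg method. In DM Pax6 had 135 and 309 CPM in labelled KO clones, against 219 and 279.6 CPM in WT clones. Transcript level thus gives no check of the label, and a count over a whole gene does not show a short change within it, so every direction below rests on the labels alone.

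The 4 EM libraries held 18965633 and 19268716 counts in labelled KO clones and 21049586 and 22019188 in WT clones. Levels are given as CPM, counts relative to the scaled library size, and each gene is compared between libraries only. Epithelial and basal markers were high in all 4: Krt5 had 4206 and 5325 CPM in labelled KO clones, against 4152 and 3432 CPM in WT clones. Epcam had 779.6 and 715 CPM in labelled KO clones, against 639 and 839 CPM in WT clones. Krt15, also a basal keratin, had 190.4 and 579 CPM in labelled KO clones, against 1056 and 1582 CPM in WT clones, the widest gap among the basal keratins read, though it was not called (-1.78 ± 1.06, adjusted p = 0.326). Markers of mature acini and myoepithelium were low, and the acinar ones moved both ways. Bhlha15 had 0.404 and 0.626 CPM in labelled KO clones, against 2.63 and 1.22 CPM in WT clones. Aqp5 had 1.06 and 1.51 CPM in labelled KO clones, against 4.46 and 3.61 CPM in WT clones. Lpo ran the other way, with 1.16 and 5.01 CPM in labelled KO clones, against 0.0892 and 0.141 CPM in WT clones. Scgb2b7 had no counts in any of the 4. Car6 had at most 0.152 CPM in any clone. Acta2 had 0.202 and 1.15 CPM in labelled KO clones, against 0.491 and 1.5 CPM in WT clones. Xist was present and Ddx3y had no counts in all 4. All 18 lymphocyte markers lay under 1 CPM. Macrophage and dendritic cell markers summed to 737 and 743 CPM in labelled KO clones, against 497 and 478 CPM in WT clones, with 11 of 18 under 1 CPM. Endothelial and pericyte markers summed to 65.1 and 82.4 CPM in labelled KO clones, against 207 and 225 CPM in WT clones, with 10 of 15 under 1 CPM. Most of this sum was Notch3, with 56.1 and 74.6 CPM in labelled KO clones, against 131 and 131 CPM in WT clones, and Flt1. Flt1 had 1.57 and 0.365 CPM in labelled KO clones, against 72.5 and 89.4 CPM in WT clones. Pecam1, Cdh5, Kdr, Tek, Tie1, Emcn and Cldn5 were each under 1 CPM in all 4. Fibroblast markers summed to 131 and 218 CPM in labelled KO clones, against 275 and 334 CPM in WT clones, with 12 of 17 under 1 CPM. In these bulk libraries fewer cells of a type and less RNA per cell cannot be told apart.

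Of 14282 genes tested, 1399 (9.8%) were called at an adjusted p under 0.05, 769 higher (5.38%) and 630 lower (4.41%) in labelled KO clones. Among the called genes, 777 (5.44% of those tested) changed at least 2-fold. The libraries of both labels did not overlap for 8792 genes (61.6%). A gap between the labels is thus common here, and a gap named below does not by itself set a gene apart. Nor does it add support to a call, which was drawn from the same libraries. Counts of list members called below are to be set against 5.38% higher and 4.41% lower over all genes tested. The lists and their members were chosen with earlier results of these data known, so such counts are no independent support. For scale, labelled KO1 and KO2 differed past 2-fold for 998 genes (6.99%) and WT1 and WT2 for 1190 (8.33%), while the label means did so for 2078 (14.5%). With labelled KO1, labelled KO2, WT1 or WT2 left out, 241, 175, 494 and 409 genes were called. Among the 144 called genes chosen by the naming rule, 39 passed with each EM library left out in turn.

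**Figure D1:**
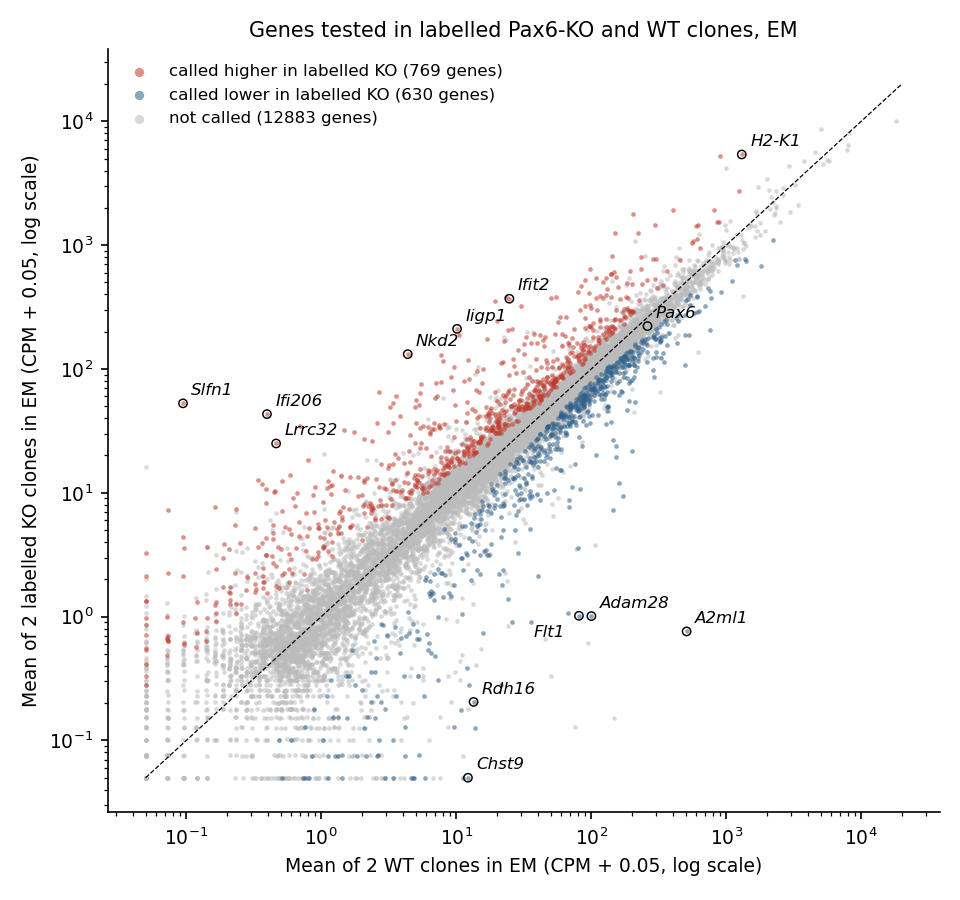
Mean level of each of the 14282 genes tested in labelled KO clones (y axis) against WT clones (x axis) in EM, as CPM + 0.05 on log scales, 2 clones a label. Genes called higher (769) lie above the dashed line of equality, genes called lower (630) below it, and Pax6 lies close to it.

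The largest rises joined interferon-inducible genes with genes of Wnt and TGF-beta control. Slfn1 (ENSMUSG00000078763, chromosome 11, 83116849 to 83122670), a Schlafen family gene known from T-cell quiescence, had 55.8 and 49.5 CPM in labelled KO clones, against 0.0892 and 0 CPM in WT clones. Its ratio was 1153-fold, with an exact 95% interval of 319 to 9528 for counting error only, since the WT group held few counts (adjusted p = 0.00552). Ifi206 (ENSMUSG00000037849, chromosome 1, 173468485 to 173491041), of the Ifi200 family of interferon-inducible nucleic acid-binding proteins, had 44.2 and 42.1 CPM in labelled KO clones, against 0.223 and 0.469 CPM in WT clones (6.95 ± 0.47, adjusted p = 0.00273). Both genes were close to silent in the WT clones and far above them in both labelled KO clones. Lrrc32, the cell-surface anchor of latent TGF-beta, had 16.3 and 33.6 CPM in labelled KO clones, against 0.357 and 0.469 CPM in WT clones (5.90 ± 0.60, adjusted p = 0.00512). Nkd2, an inhibitor that binds Dishevelled in the Wnt pathway, had 127 and 136 CPM in labelled KO clones, against 1.7 and 6.94 CPM in WT clones (4.93 ± 0.71, adjusted p = 0.0109). The nearest clones of the labels lay 34.7-fold apart for Lrrc32 and 18.3-fold apart for Nkd2. Palmd, which encodes the cytosolic protein palmdelphin, had 33.7 and 35.5 CPM in labelled KO clones, against 0.312 and 0.985 CPM in WT clones (5.74 ± 0.51, adjusted p = 0.00464). Dclk2, a microtubule-associated kinase of the doublecortin family, had 10.6 and 9.7 CPM in labelled KO clones, against 0.223 and 0.563 CPM in WT clones (4.68 ± 0.56, adjusted p = 0.00722). Calm4, a calmodulin-like protein known from mouse skin, had 9.75 and 15.3 CPM in labelled KO clones, against 0.491 and 0.0938 CPM in WT clones (5.38 ± 0.88, adjusted p = 0.0156). All 3 were at 1 CPM or less in both WT clones. Skint3, an immunoglobulin-superfamily gene related to Skint1 of mouse skin, had 11.3 and 12.1 CPM in labelled KO clones, against 0.446 and 0.188 CPM in WT clones (5.17 ± 0.40, adjusted p = 0.003). Ifi208, of the Ifi200 family, had 10.5 and 10.7 CPM in labelled KO clones, against 0.491 and 0.188 CPM in WT clones (4.93 ± 0.58, adjusted p = 0.00695). Iigp1, an interferon-inducible GTPase, had 214 and 208 CPM in labelled KO clones, against 16.5 and 3.66 CPM in WT clones (4.38 ± 0.61, adjusted p = 0.0102). WT1 was the higher WT clone for these 3. When each of the 4 EM libraries was left out in turn, Slfn1, Ifi206, Lrrc32, Palmd, Skint3, Ifi208 and Dclk2 passed every time, at an adjusted p of up to 0.045. Nkd2 and Iigp1 lost their calls without labelled KO1 or labelled KO2 (adjusted p up to 0.0611). Calm4 missed the threshold without labelled KO1 or labelled KO2 or WT2 (adjusted p up to 0.0872). Folds of these 10 genes moved past 1.5 times with 1 library left out. The log2 range was 6.51 to 7.56 for Ifi206 and 4.16 to 5.47 for Dclk2 (WT2), 4.69 to 5.92 for Skint3 and 4.42 to 5.78 for Ifi208 (WT1), and 5.28 to 6.33 for Lrrc32 (labelled KO2). Without WT1 or WT2 it was 5.13 to 6.76 for Palmd, 4.66 to 6.97 for Calm4, 4.25 to 6.27 for Nkd2 and 3.67 to 5.85 for Iigp1, and the Slfn1 ratio moved likewise.

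Among the largest falls were receptors, metalloproteases and enzymes present in both WT clones and absent or near absent in both labelled KO clones. Chst9 (ENSMUSG00000047161, chromosome 18, 15451924 to 15760157), a sulfotransferase that acts on N-acetylgalactosamine, had 0 and 0 CPM in labelled KO clones, against 10.8 and 13.6 CPM in WT clones, at least 157-fold lower (adjusted p = 0.0123). Adamdec1, a secreted protein of the ADAM family, had 0 and 0 CPM in labelled KO clones, against 10.9 and 11.5 CPM in WT clones, at least 146-fold lower (adjusted p = 0.0127). These bounds set 3 counts over the labelled KO group in place of 0. A2ml1 (ENSMUSG00000047228, chromosome 6, 128539821 to 128581608), a protease inhibitor of the alpha-2-macroglobulin family, had 1.26 and 0.156 CPM in labelled KO clones, against 828 and 188 CPM in WT clones (-9.46 ± 1.03, adjusted p = 0.00615). Adam28, a membrane metalloprotease, had 0.303 and 1.62 CPM in labelled KO clones, against 97.6 and 103 CPM in WT clones (-6.71 ± 0.84, adjusted p = 0.008). Flt1, a receptor of vascular endothelial growth factor that is an endothelial marker, had 1.57 and 0.365 CPM in labelled KO clones, against 72.5 and 89.4 CPM in WT clones (-6.37 ± 0.56, adjusted p = 0.00464). The endothelial markers Pecam1 and Cdh5 were under 1 CPM in all 4 clones. The nearest clones of the labels stood 149-fold apart for A2ml1, 60.3-fold for Adam28 and 46.3-fold for Flt1. Irf8, an interferon regulatory factor known for myeloid cells, had 0.354 and 0.104 CPM in labelled KO clones, against 21.7 and 21.4 CPM in WT clones (-6.51 ± 0.85, adjusted p = 0.00857). Rdh16, a retinol dehydrogenase, had 0.101 and 0.209 CPM in labelled KO clones, against 13.1 and 13.7 CPM in WT clones (-6.38 ± 0.85, adjusted p = 0.00906). Thsd4, a matrix protein of microfibrils, had 0.151 and 0 CPM in labelled KO clones, against 5.8 and 21.7 CPM in WT clones, a 176-fold lower level with an interval of 59.9 to 855 (adjusted p = 0.0179). Aox3, an aldehyde oxidase, had 0.202 and 0.0522 CPM in labelled KO clones, against 13 and 8.44 CPM in WT clones (-6.32 ± 1.31, adjusted p = 0.0299). Plxdc2, a transmembrane protein with a plexin domain, had 2.02 and 0 CPM in labelled KO clones, against 53.4 and 81.3 CPM in WT clones (-6.04 ± 1.33, adjusted p = 0.0355). The A2ml1 and Flt1 calls held with any 1 of the 4 EM libraries left out, at an adjusted p of up to 0.0498. Adam28 missed the threshold without labelled KO1 (adjusted p up to 0.0538). Chst9, Adamdec1, Irf8 and Rdh16 lost their calls without labelled KO1 or labelled KO2 (adjusted p up to 0.0707). Thsd4 missed the threshold without labelled KO1 or labelled KO2 or WT2 (adjusted p up to 0.119). Aox3 and Plxdc2 lost their calls whichever EM library was left out (adjusted p up to 0.185). Folds moved past 1.5 times without either labelled KO clone, over a log2 range of -8.35 to -5.94 for Adam28, -7.60 to -5.91 for Irf8, -7.77 to -5.69 for Flt1 and -7.52 to -5.69 for Aox3. The fold of Plxdc2 moved without labelled KO1 or labelled KO2 too, and that of Thsd4 with any of the 4 libraries left out. Without labelled KO1 both genes had 0 counts left under the KO label. Rdh16 moved without labelled KO2 (-6.97 to -5.96), and A2ml1 with any of the 4 libraries left out (-11.61 to -8.02). With the clone as a random effect in limma-voom, Thsd4 (adjusted p = 0.103) and Aox3 (0.0504) were not called.

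**Figure D2:**
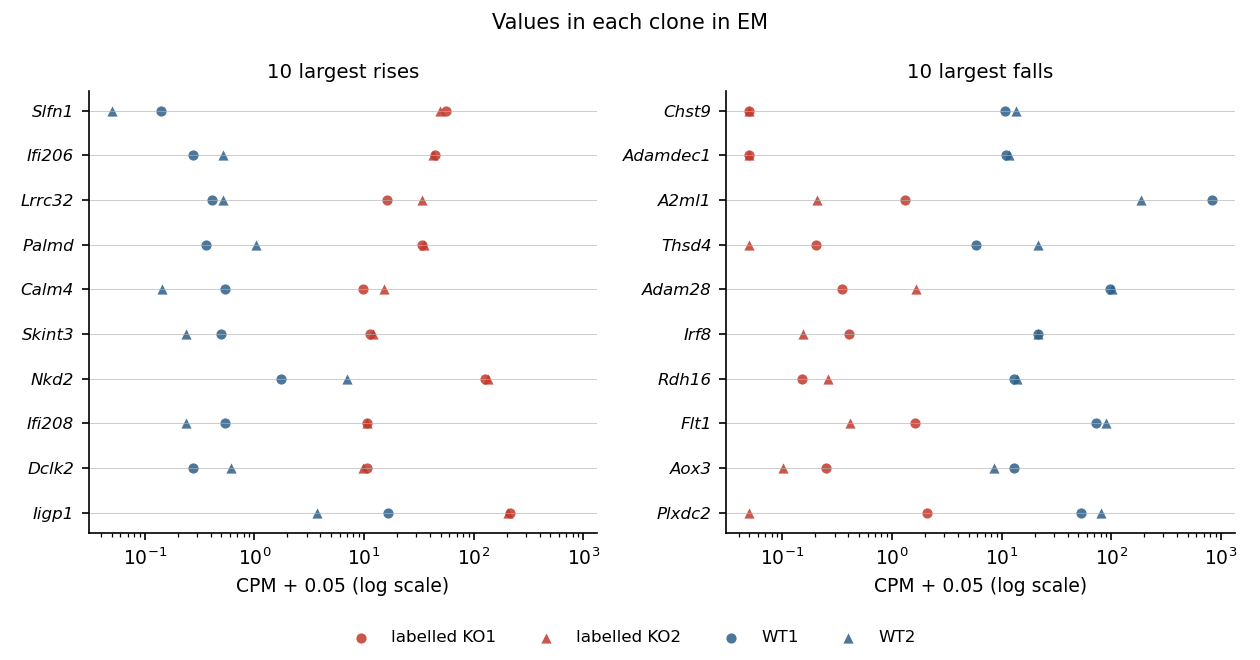
Level in each clone in EM of the 10 largest rises (left) and 10 largest falls (right), as CPM + 0.05 on a log scale, with circles for clone 1 and triangles for clone 2 of each label. Only genes whose labelled KO clones (red) and WT clones (blue) do not overlap were eligible. Chst9 and Adamdec1 have 0 counts in both labelled KO clones.

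Interferons signal through surface receptors and STAT transcription factors to switch on antiviral genes, and a group of 44 such genes was higher in labelled KO clones almost throughout. Of the 44 tested, 40 rose, 1 fell (Ifi27) and 3 were not called, with a median log2 fold change of 2.39 against 0.01 over all genes tested. The called rises ran from 0.93 to 4.38, and 43 of the 44 had both labelled KO clones above both WT clones. Over all genes tested, the labels lay apart, one way or the other, for 61.6%. The list was chosen with earlier results of these data known, so its counts describe these clones and are no independent support. The summed level was 15680 and 15518 CPM in labelled KO clones, against 4654 and 2657 CPM in WT clones. Labelled KO clones were thus close to each other, whereas WT1 stood above WT2 in 43 of the 44 genes.

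Ifit2 (ENSMUSG00000045932, chromosome 19, 34550694 to 34576419), which binds viral RNA, had 379 and 358 CPM in labelled KO clones, against 26.8 and 22.6 CPM in WT clones (3.90 ± 0.28, adjusted p = 0.00273). Gbp3 (ENSMUSG00000028268, chromosome 3, 142560026 to 142573209), a guanylate-binding protein, had 236 and 252 CPM in labelled KO clones, against 25.8 and 14.3 CPM in WT clones (3.60 ± 0.26, adjusted p = 0.00273). Rsad2 (ENSMUSG00000020641, chromosome 12, 26442746 to 26456452), the antiviral enzyme viperin, had 418 and 346 CPM in labelled KO clones, against 28 and 18.4 CPM in WT clones (4.04 ± 0.31, adjusted p = 0.00273). The nearest clones of the labels lay 13.4-fold apart for Ifit2, 9.17-fold for Gbp3 and 12.4-fold for Rsad2. Oas1g (ENSMUSG00000066861, chromosome 5, 120876142 to 120887613), of the oligoadenylate synthetases that sense double-stranded RNA, had 35.9 and 46.8 CPM in labelled KO clones, against 3.61 and 3.99 CPM in WT clones (3.44 ± 0.30, adjusted p = 0.00464). Ddx58, the RNA sensor RIG-I, had 310 and 337 CPM in labelled KO clones, against 104 and 74.5 CPM in WT clones (1.86 ± 0.16, adjusted p = 0.00464). Ifi27, an interferon-inducible gene, went the other way and had 40.8 and 34.3 CPM in labelled KO clones, against 140.5 and 138 CPM in WT clones (-1.89 ± 0.13, adjusted p = 0.00273), with no overlap between the labels. Ifi27, Ifit2, Gbp3, Rsad2, Oas1g and Ddx58 kept their calls whichever EM library was left out, with an adjusted p of up to 0.0358. Across the list, 24, 22, 41 and 36 members were called higher without labelled KO1, labelled KO2, WT1 or WT2. Of the interferons themselves, Ifnb1, Ifna2, Ifna4, Ifnl2, Ifnl3, Ifne, Ifnk and Ifng were looked up after these values were seen, and none had more than 5 counts in any clone in EM: Ifnb1 had 3 and 2 counts in labelled KO clones, against 2 and 0 in WT clones, and Ifnl3 had 5 and 3 counts in labelled KO clones, against 1 and 0 in WT clones.

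The promoters of 3 of these genes are shown because they carry the letters GAAANNGAAA, a form of the interferon-stimulated response element bound by STAT and IRF complexes. Each line gives the 250 bases before a RefSeq transcription start (build GRCm38.p6), 5′ to 3′ on the gene's strand, with matches on either strand in capitals, and overlapping matches run together.
Gbp3, chr3:142559794-142560043, plus strand: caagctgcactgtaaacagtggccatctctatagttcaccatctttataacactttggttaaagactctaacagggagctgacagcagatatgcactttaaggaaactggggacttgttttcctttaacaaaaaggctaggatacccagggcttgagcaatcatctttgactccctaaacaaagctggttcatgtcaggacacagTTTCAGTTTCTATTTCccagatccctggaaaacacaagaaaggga
Rsad2, chr12:26456453-26456702, minus strand: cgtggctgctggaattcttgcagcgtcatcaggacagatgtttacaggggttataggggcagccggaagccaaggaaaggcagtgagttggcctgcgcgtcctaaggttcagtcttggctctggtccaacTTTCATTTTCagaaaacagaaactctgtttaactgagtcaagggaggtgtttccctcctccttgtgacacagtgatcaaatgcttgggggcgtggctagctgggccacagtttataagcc
Oas1g, chr5:120887614-120887863, minus strand: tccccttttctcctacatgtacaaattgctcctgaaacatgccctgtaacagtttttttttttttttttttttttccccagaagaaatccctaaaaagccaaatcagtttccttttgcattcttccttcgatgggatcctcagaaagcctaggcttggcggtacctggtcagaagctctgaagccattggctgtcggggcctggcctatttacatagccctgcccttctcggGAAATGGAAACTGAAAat
Gbp3 and Oas1g each held 2 overlapping matches close to the start, and Rsad2 held 1 farther away. The window before another RefSeq start of Gbp3, not printed, held none. The windows of Ifit2 and Ddx58 held none, which says only that these letters are not in them, and Ifi27 has no entry. The motif was searched on both strands, overlaps included. It was found before a start of 17 of 32 interferon-list genes with an entry (53.1%), 65 of 579 genes called higher (11.2%), 8 of 475 called lower (1.68%) and 347 of 10395 genes tested (3.34%). The genes called higher include members of the interferon list. Among MHC class I genes it was found for 3 of 16 (18.8%). A match is a description of sequence and shows neither binding nor a cause.

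MHC class I molecules display peptides that the immunoproteasome cuts and the TAP transporter loads. Of 18 such genes tested, 15 rose and none fell, with a median of 2.05, and all 18 had both labelled KO clones above both WT clones. The share of all genes tested with the labels apart, in either direction, was 61.6%. This list too was chosen with earlier results of these data known. The sum was 19355 and 18197 CPM in labelled KO clones, against 5987 and 3170 CPM in WT clones. H2-K1, a class I heavy chain, had 5594 and 5185 CPM in labelled KO clones, against 1656 and 949 CPM in WT clones (2.05 ± 0.29, adjusted p = 0.0109). H2-T22, a class Ib molecule seen by gamma-delta T cells in mouse, had 496 and 539.5 CPM in labelled KO clones, against 112 and 66.8 CPM in WT clones (2.53 ± 0.31, adjusted p = 0.00746). Psmb9, an immunoproteasome subunit, had 120.3 and 119 CPM in labelled KO clones, against 31.7 and 20.5 CPM in WT clones (2.20 ± 0.22, adjusted p = 0.00504). WT2 was the lowest clone for each of the 3. Psmb10, also an immunoproteasome subunit, had 57.8 and 55.2 CPM in labelled KO clones, against 33 and 25 CPM in WT clones (0.96 ± 0.14, adjusted p = 0.0109). Tap2, a subunit of the peptide transporter, had 56.7 and 72.4 CPM in labelled KO clones, against 24.9 and 23.2 CPM in WT clones (1.43 ± 0.14, adjusted p = 0.0051). Tapbp (tapasin), which bridges the transporter to class I molecules, had 517 and 545 CPM in labelled KO clones, against 296 and 299 CPM in WT clones (0.83 ± 0.12, adjusted p = 0.00986). These 3 differed less in size. Without any single EM library, Psmb9, Tap2 and H2-T22 still passed (adjusted p up to 0.0498). H2-K1 and Psmb10 missed the threshold without labelled KO1 or labelled KO2 (adjusted p up to 0.0667). Tapbp lost its call whichever EM library was left out (adjusted p up to 0.0772). Exons of Psmb9 overlap those of Tap1 on the other strand, a gene with more counts, and whether counting used strand is not given.

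**Figure D3:**
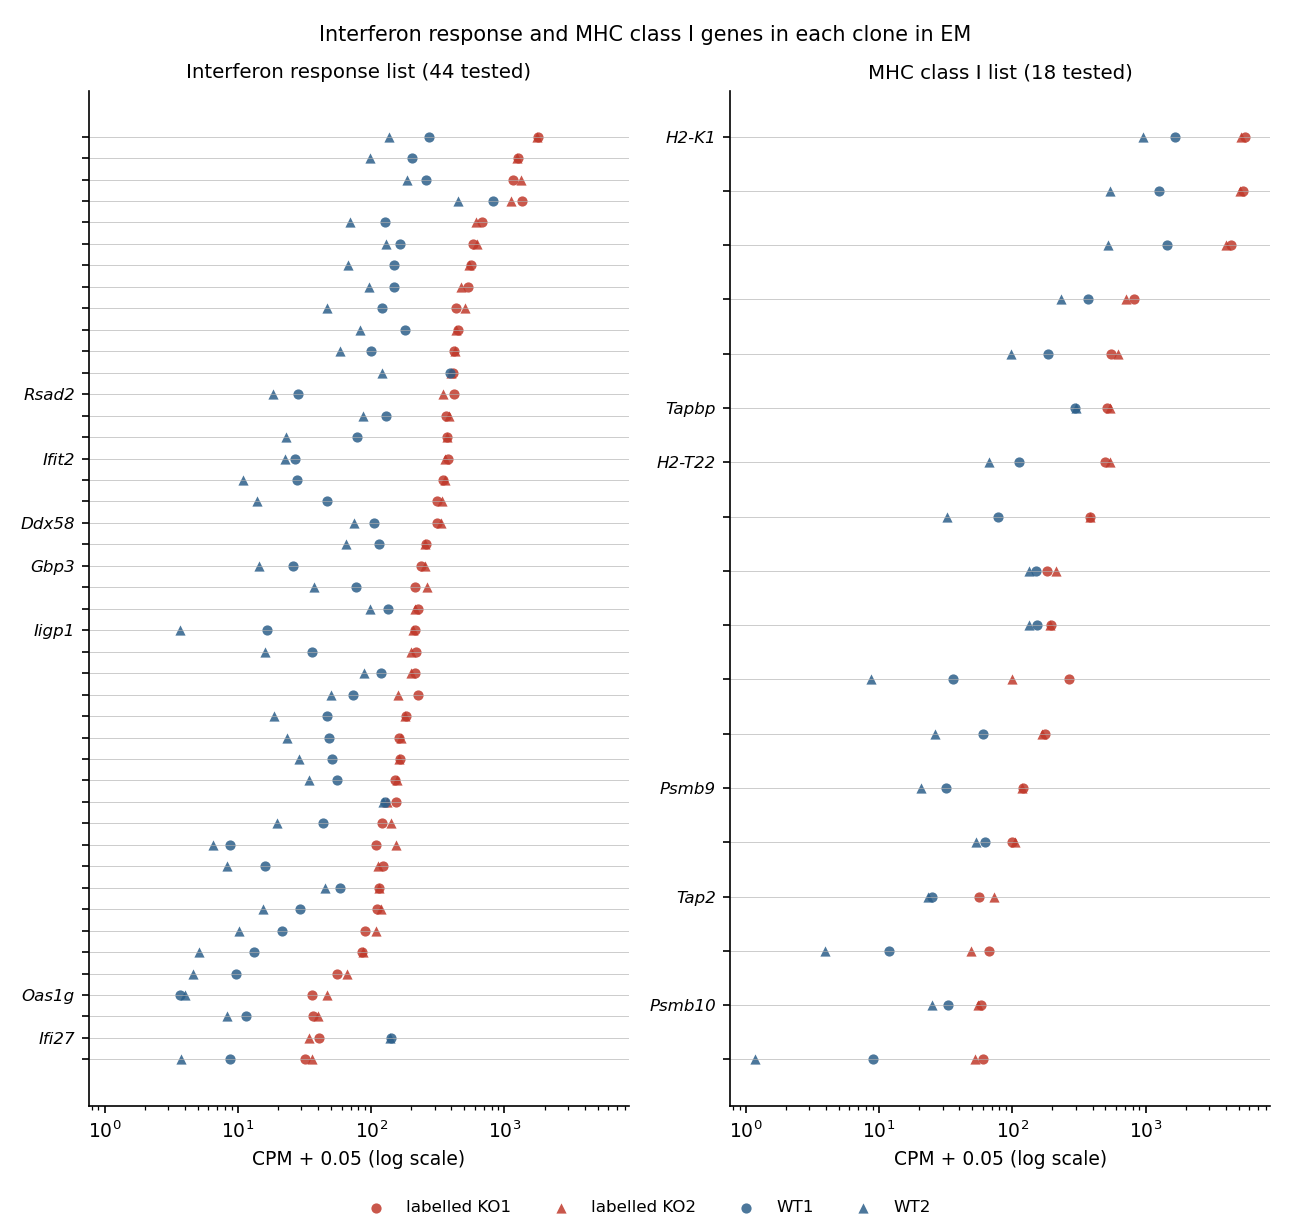
Level of each of 44 interferon response genes (left) and 18 MHC class I genes (right) in each clone in EM, as CPM + 0.05 on a log scale, with circles for clone 1 and triangles for clone 2 of each label, and names for the genes chosen by the naming rule. Labelled KO clones (red) lie to the right of both WT clones (blue) for 43 of the 44 and for all 18 genes; Ifi27 is the exception.

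Chemokines and feedback genes of NF-kappaB, the transcription factor of inflammatory signalling, were also more often higher. Of 37 tested, 12 rose and 1 fell, with a median of 0.61, or 0.58 with genes absent from a label at their bound. Cxcl5, a neutrophil attractant, had 119 and 230.3 CPM in labelled KO clones, against 18.7 and 14.8 CPM in WT clones (3.38 ± 0.38, adjusted p = 0.00623). Cxcl1, of the same kind, had 29.6 and 44.6 CPM in labelled KO clones, against 11.2 and 12.2 CPM in WT clones (1.66 ± 0.21, adjusted p = 0.00833). Cxcl2, again a neutrophil attractant, had 11.4 and 13.7 CPM in labelled KO clones, against 2.1 and 1.92 CPM in WT clones (2.63 ± 0.27, adjusted p = 0.00512). Ccl5, which attracts T cells, had 88.8 and 68.9 CPM in labelled KO clones, against 9.37 and 5.81 CPM in WT clones (3.37 ± 0.35, adjusted p = 0.00552). Labelled KO2 was the highest clone for Cxcl5, Cxcl1 and Cxcl2. Tlr2, a receptor of bacterial lipoproteins, had 8.64 and 10.6 CPM in labelled KO clones, against 2.19 and 1.69 CPM in WT clones (2.31 ± 0.29, adjusted p = 0.00827). Birc3, an inhibitor of cell death induced by NF-kappaB, had 87.3 and 92.4 CPM in labelled KO clones, against 55.5 and 46.1 CPM in WT clones (0.82 ± 0.12, adjusted p = 0.0118). When each of the 4 EM libraries was left out in turn, Cxcl2, Ccl5, Cxcl5 and Cxcl1 passed every time, at an adjusted p of up to 0.0436. Tlr2 lost its call without labelled KO2 (adjusted p up to 0.056). Birc3 missed the threshold without labelled KO1 or labelled KO2 or WT2 (adjusted p up to 0.0872). The macrophage marker sum, higher in labelled KO clones as given above, came mostly from Cd14, with 655 and 689 CPM in labelled KO clones, against 326 and 361 CPM in WT clones (0.97 ± 0.29, adjusted p = 0.0847). Cd68, the next most abundant marker, ran the other way, with 63.3 and 33.5 CPM in labelled KO clones, against 152 and 96.6 CPM in WT clones (-1.36 ± 0.37, adjusted p = 0.0649), and was called lower in DM (-2.15 ± 0.38, adjusted p = 0.0302). The part of these markers in the values above was not tested.

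TGF-beta, activin and BMP ligands act through SMAD proteins. Of 37 genes of these pathways tested, 7 rose and 3 fell, with a median of 0.00. Inhba (ENSMUSG00000041324, chromosome 13, 16011851 to 16031621), the activin A subunit, had 109 and 98.5 CPM in labelled KO clones, against 8.88 and 10.3 CPM in WT clones (3.43 ± 0.21, adjusted p = 0.0027). Pmepa1, a feedback inhibitor induced by TGF-beta, had 101 and 64.9 CPM in labelled KO clones, against 11.3 and 13.6 CPM in WT clones (2.73 ± 0.27, adjusted p = 0.0051). Skil, another such inhibitor, had 113 and 100.2 CPM in labelled KO clones, against 63.3 and 61 CPM in WT clones (0.78 ± 0.10, adjusted p = 0.00917). Ltbp1, which holds latent TGF-beta in the matrix, had 288 and 367 CPM in labelled KO clones, against 85.9 and 110.3 CPM in WT clones (1.74 ± 0.19, adjusted p = 0.00615). The ligand subunit, the latent-complex protein and both feedback genes thus rose. On the other side, Id2, a target of BMP signalling, had 24.6 and 24.8 CPM in labelled KO clones, against 47.4 and 56.6 CPM in WT clones (-1.07 ± 0.18, adjusted p = 0.0176). Gdf15, a stress-induced ligand of the family, had 12.1 and 18.5 CPM in labelled KO clones, against 64.2 and 54.2 CPM in WT clones (-1.95 ± 0.38, adjusted p = 0.0253). The Inhba, Pmepa1 and Ltbp1 calls held with any 1 of the 4 EM libraries left out, at an adjusted p of up to 0.0419. Skil missed the threshold without labelled KO1 or WT2 (adjusted p up to 0.0611). Id2 lost its call without labelled KO1 or labelled KO2 or WT2 (adjusted p up to 0.108). Gdf15 missed the threshold whichever EM library was left out (adjusted p up to 0.139).

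Wnt proteins signal through Frizzled and LRP receptors, and 6 of 40 pathway genes tested rose, Nkd2 among them, while 2 fell (median 0.10). The ligand Wnt5a, known for beta-catenin-independent signalling, had 30.6 and 23.7 CPM in labelled KO clones, against 3.39 and 0.657 CPM in WT clones (3.74 ± 0.80, adjusted p = 0.0328). The ligand Wnt6 had 0.808 and 0.626 CPM in labelled KO clones, against 4.01 and 6.1 CPM in WT clones (-2.81 ± 0.48, adjusted p = 0.0174). Ligands thus moved both ways. The co-receptor Lrp5 had 233 and 268 CPM in labelled KO clones, against 132 and 161 CPM in WT clones (0.77 ± 0.14, adjusted p = 0.0216). The receptor Fzd4 had 7.98 and 7.88 CPM in labelled KO clones, against 19 and 19.5 CPM in WT clones (-1.28 ± 0.22, adjusted p = 0.0177). Lgr6, a receptor of R-spondins, had 1.16 and 1.46 CPM in labelled KO clones, against 0.0892 and 0.234 CPM in WT clones (2.98 ± 0.54, adjusted p = 0.0203). The Lgr6 level was close to the floor of detection in WT clones. Wnt6 and Wnt5a lost their calls without labelled KO1 or labelled KO2 or WT2 (adjusted p up to 0.131). Lrp5 missed the threshold without labelled KO1 or labelled KO2 or WT1 (adjusted p up to 0.137). Fzd4 and Lgr6 lost their calls whichever EM library was left out (adjusted p up to 0.116). Without WT1 or WT2 the log2 value of Wnt5a moved past 1.5-fold (3.00 to 5.36), as did that of Lgr6 without WT2 (2.45 to 3.78), and with the clone as a random effect Lgr6 was not called (adjusted p = 0.229).

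In the Notch pathway, 3 of 20 genes tested rose and 3 fell (median -0.09). Among ligands, Dll1 had 67.6 and 92.5 CPM in labelled KO clones, against 37.6 and 41.1 CPM in WT clones (1.02 ± 0.24, adjusted p = 0.0435). Jag2 had 123 and 149 CPM in labelled KO clones, against 229.6 and 234 CPM in WT clones (-0.77 ± 0.13, adjusted p = 0.0174). The receptor Notch3 had 56.1 and 74.6 CPM in labelled KO clones, against 131 and 131 CPM in WT clones (-1.0 ± 0.24, adjusted p = 0.047). The target Hes1 had 84.6 and 87.2 CPM in labelled KO clones, against 121 and 141 CPM in WT clones (-0.61 ± 0.12, adjusted p = 0.0259). Among these called genes a Delta ligand rose while a Jagged ligand, a receptor and a target fell. Dtx4, a Deltex ubiquitin ligase of Notch, had 99.3 and 114 CPM in labelled KO clones, against 19.2 and 34.6 CPM in WT clones (1.98 ± 0.32, adjusted p = 0.0147). The coactivator Maml1 had 79.8 and 77.9 CPM in labelled KO clones, against 52 and 54 CPM in WT clones (0.57 ± 0.09, adjusted p = 0.012). Dtx4 missed the threshold without labelled KO1 or labelled KO2 (adjusted p up to 0.0872). Maml1, Jag2, Hes1, Dll1 and Notch3 lost their calls whichever EM library was left out (adjusted p up to 0.233).

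Of 27 genes of the EGF family and of MAPK feedback, 1 rose and 4 fell (median -0.07). The EGF receptor ligand Tgfa had 34.6 and 34.6 CPM in labelled KO clones, against 55.2 and 51.3 CPM in WT clones (-0.62 ± 0.12, adjusted p = 0.0227). Areg, a ligand of the same receptor, had 4.24 and 6.52 CPM in labelled KO clones, against 10.6 and 11.4 CPM in WT clones (-1.03 ± 0.25, adjusted p = 0.0466). Btc, also an EGF receptor ligand, was higher and had 14.6 and 17.7 CPM in labelled KO clones, against 9.46 and 8.16 CPM in WT clones (0.88 ± 0.17, adjusted p = 0.0239). The neuregulin Nrg2 had 32.2 and 28.6 CPM in labelled KO clones, against 71.9 and 57.9 CPM in WT clones (-1.09 ± 0.21, adjusted p = 0.0232). Spry2, a feedback inhibitor of receptor tyrosine kinases, had 17 and 13.7 CPM in labelled KO clones, against 28.7 and 28.1 CPM in WT clones (-0.89 ± 0.17, adjusted p = 0.0262). Changes in this group were close to 2-fold or smaller. In the FGF pathway, which drives lacrimal budding in the embryo, 1 of 19 genes tested rose and 2 fell (median 0.01). Fgfbp1, a secreted carrier that releases FGFs from the matrix, had 71.6 and 145 CPM in labelled KO clones, against 464 and 521 CPM in WT clones (-2.18 ± 0.36, adjusted p = 0.0153). The co-receptor syndecan Sdc1 had 731 and 653 CPM in labelled KO clones, against 1138 and 1252 CPM in WT clones (-0.79 ± 0.16, adjusted p = 0.0265). Flrt2, a transmembrane protein that interacts with FGF receptors, had 61 and 65.4 CPM in labelled KO clones, against 40.5 and 38.1 CPM in WT clones (0.69 ± 0.12, adjusted p = 0.0179). Fgfbp1 lost its call without labelled KO1 or WT2 (adjusted p up to 0.0616). Tgfa, Nrg2, Btc, Spry2, Areg, Flrt2 and Sdc1 missed the threshold whichever EM library was left out (adjusted p up to 0.186). The Fgfbp1 value ranged over -2.79 to -1.76, with labelled KO2 the library that moved it most, and Areg was not called over the 4 EM libraries alone (adjusted p = 0.0744).

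Of 26 transcription regulators of the eye and lacrimal gland tested, 4 rose and 5 fell, with a median of 0.11. Sox2, which pairs with Pax6 on eye enhancers, had 10.3 and 7.67 CPM in labelled KO clones, against 34.6 and 35.2 CPM in WT clones (-1.96 ± 0.37, adjusted p = 0.0243). Six2, a homeobox protein, had 40.5 and 42.2 CPM in labelled KO clones, against 77.6 and 66.8 CPM in WT clones (-0.80 ± 0.12, adjusted p = 0.0124). Tfap2c, an AP-2 factor of ectoderm, had 10.2 and 9.18 CPM in labelled KO clones, against 23 and 22.9 CPM in WT clones (-1.24 ± 0.21, adjusted p = 0.0171). Sox2 had the largest change among these 3, with the nearest clones 3.38-fold apart. Sox9, needed for lacrimal bud extension in mouse, had 169.8 and 189 CPM in labelled KO clones, against 102 and 121 CPM in WT clones (0.69 ± 0.12, adjusted p = 0.0189). Runx1, a Runt factor expressed in mouse lacrimal epithelium, had 145 and 163 CPM in labelled KO clones, against 54.3 and 66.6 CPM in WT clones (1.35 ± 0.18, adjusted p = 0.00955). Runx1 missed the threshold without labelled KO2 (adjusted p up to 0.0653). Six2 and Sox9 lost their calls without labelled KO1 or labelled KO2 or WT1 (adjusted p up to 0.121). Tfap2c and Sox2 missed the threshold whichever EM library was left out (adjusted p up to 0.155).

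Of 22 genes of the cornea, conjunctiva and lens tested, none rose and 4 fell, and the median was -0.76. At an unadjusted p under 0.05 in edgeR 2 were higher and 7 lower, and DESeq2 called 1 higher and 5 lower. Krt4, a keratin of the conjunctival surface, had 4.49 and 2.5 CPM in labelled KO clones, against 46 and 113 CPM in WT clones (-4.50 ± 0.70, adjusted p = 0.0131). Cryab, a small heat shock protein and lens crystallin, had 2.63 and 2.03 CPM in labelled KO clones, against 24.3 and 19.7 CPM in WT clones (-3.24 ± 0.31, adjusted p = 0.00495). The nearest clones of the labels were 10.2-fold apart for Krt4 and 7.5-fold for Cryab. Tkt, the transketolase abundant in mouse cornea, had 415 and 493 CPM in labelled KO clones, against 729.9 and 725 CPM in WT clones (-0.68 ± 0.15, adjusted p = 0.0356). Areg, given above, was the fourth. Cryab kept its call whichever EM library was left out, with an adjusted p of up to 0.0419. Krt4 lost its call without labelled KO1 or labelled KO2 (adjusted p up to 0.106). Tkt missed the threshold whichever EM library was left out (adjusted p up to 0.187). Without WT2 the Krt4 value was the one farthest from the rest (range -5.00 to -3.71).

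Retinoids, which shape the ocular surface, are made from retinol by alcohol, retinol and retinaldehyde dehydrogenases. Of 20 genes tested, 2 rose and 4 fell (median -0.14). Adh7, an alcohol dehydrogenase that oxidises retinol, had 11.6 and 12.1 CPM in labelled KO clones, against 141 and 179.7 CPM in WT clones (-3.76 ± 0.42, adjusted p = 0.00623). Adh1, of the same family, had 0.0505 and 0.104 CPM in labelled KO clones, against 13 and 6.0 CPM in WT clones, a 125-fold lower level with an interval of 42.4 to 607 (adjusted p = 0.008). With Rdh16, given above, 3 retinol-oxidising enzymes were lower, and their nearest clones were 11.7-fold (Adh7), 57.5-fold (Adh1) and 62.7-fold (Rdh16) apart. Aldh1a7, an aldehyde dehydrogenase close to Aldh1a1, had 0.0505 and 0.156 CPM in labelled KO clones, against 1.03 and 1.31 CPM in WT clones (-3.43 ± 0.69, adjusted p = 0.0282). Stra6, the receptor that takes up retinol, was higher and had 509 and 725 CPM in labelled KO clones, against 148 and 238 CPM in WT clones (1.68 ± 0.30, adjusted p = 0.0188). The retinoic acid receptor Rarb had 64.2 and 61.1 CPM in labelled KO clones, against 40.7 and 28.4 CPM in WT clones (0.86 ± 0.19, adjusted p = 0.034). Adh7 and Adh1 missed the threshold without labelled KO1 or labelled KO2 (adjusted p up to 0.0614). Stra6 lost its call without labelled KO1 or labelled KO2 or WT1 (adjusted p up to 0.11). Rarb missed the threshold without labelled KO1 or labelled KO2 or WT2 (adjusted p up to 0.146). Aldh1a7 lost its call whichever EM library was left out (adjusted p up to 0.153). Leaving out labelled KO2 moved the Aldh1a7 value past 1.5-fold (range -4.38 to -2.85), and leaving out WT1 did so for Adh1. Rarb shares exon sequence with Top2b on the other strand.

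Only 13 of 40 tear proteins and lacrimal secretory products had enough counts to test; 3 rose and none fell (median 0.58). Wfdc2, a secreted protein of the WAP family, had 2486 and 3000.2 CPM in labelled KO clones, against 1314 and 1154 CPM in WT clones (1.15 ± 0.23, adjusted p = 0.0285). Wfdc18, of the same family, had 1794 and 2032 CPM in labelled KO clones, against 266 and 537 CPM in WT clones (2.25 ± 0.52, adjusted p = 0.0408). Pigr, the receptor that carries IgA into tears, had 588 and 583 CPM in labelled KO clones, against 171 and 108 CPM in WT clones (2.07 ± 0.43, adjusted p = 0.0295). All 3 were higher in both labelled KO clones than in either WT clone. Of 30 genes of acinar secretion, 4 rose and 2 fell (median -0.07). Chrm3, the muscarinic receptor that triggers tear secretion, had 0 and 0 CPM in labelled KO clones, against 4.06 and 5.06 CPM in WT clones, at least 59.1-fold lower (adjusted p = 0.00615). Creb3l2, a regulator of secretory capacity, had 27.8 and 32.3 CPM in labelled KO clones, against 57.8 and 50.6 CPM in WT clones (-0.85 ± 0.12, adjusted p = 0.00991). Downstream of the receptor, the calcium channel Itpr2 had 158 and 144 CPM in labelled KO clones, against 90.6 and 98.3 CPM in WT clones (0.68 ± 0.10, adjusted p = 0.0103). The calcium-gated potassium channel Kcnn4 had 9.7 and 10.7 CPM in labelled KO clones, against 4.37 and 2.72 CPM in WT clones (1.52 ± 0.30, adjusted p = 0.0269). The secretory vesicle gene Vamp8 had 261 and 278 CPM in labelled KO clones, against 183 and 167 CPM in WT clones (0.62 ± 0.13, adjusted p = 0.0303). Rab27b, a GTPase of secretory vesicles, had 30.2 and 43.9 CPM in labelled KO clones, against 21.7 and 19.9 CPM in WT clones (0.83 ± 0.18, adjusted p = 0.0358). Chrm3 was without a count in both labelled KO clones, whereas the 4 rises were under 3-fold. Among 28 duct and ion transport genes 1 was called: Slc26a9, a chloride transporter, had 50.8 and 69.4 CPM in labelled KO clones, against 2.99 and 4.08 CPM in WT clones (4.09 ± 0.40, adjusted p = 0.0051), the nearest clones being 12.5-fold apart. When each of the 4 EM libraries was left out in turn, Chrm3 and Slc26a9 passed every time, at an adjusted p of up to 0.0361. Creb3l2 lost its call without labelled KO1 or WT1 (adjusted p up to 0.0671). Itpr2 missed the threshold without labelled KO1 or labelled KO2 or WT1 (adjusted p up to 0.0682). Kcnn4 lost its call without labelled KO1 or labelled KO2 or WT2 (adjusted p up to 0.133). Rab27b missed the threshold without labelled KO2 or WT1 or WT2 (adjusted p up to 0.165). Wfdc2, Pigr, Wfdc18 and Vamp8 lost their calls whichever EM library was left out (adjusted p up to 0.173). Wfdc18 ranged over 1.84 to 2.85, with WT2 the library that moved it most, and with the clone as a random effect Kcnn4 (adjusted p = 0.0854) and Rab27b (0.0616) were not called.

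Among 22 basal cell genes, 2 rose and 1 fell (median -0.02). Krt14, the partner keratin of Krt5, had 1039 and 1793 CPM in labelled KO clones, against 642 and 551 CPM in WT clones (1.25 ± 0.28, adjusted p = 0.0388). Bcl11b, a transcription factor of basal epithelial cells, had 35.6 and 37.5 CPM in labelled KO clones, against 4.33 and 5.63 CPM in WT clones (2.87 ± 0.37, adjusted p = 0.00835). Dst, which links keratin to hemidesmosomes, had 122 and 108 CPM in labelled KO clones, against 238 and 204 CPM in WT clones (-0.94 ± 0.13, adjusted p = 0.00961). Bcl11b was the largest of these changes, with the nearest clones 6.32-fold apart. Of 33 genes of keratinization, the programme that builds a cornified surface, 4 rose and 3 fell (median 0.43, or 0.31 with genes absent from a label at their bound). Sprr2d, a cornified envelope precursor, had 111 and 122 CPM in labelled KO clones, against 9.95 and 5.86 CPM in WT clones (3.88 ± 0.42, adjusted p = 0.00615). Tgm1, the transglutaminase that cross-links the envelope, had 25.6 and 48.1 CPM in labelled KO clones, against 2.36 and 4.36 CPM in WT clones (3.45 ± 0.45, adjusted p = 0.00857). Klk8, a protease of shedding, had 37.5 and 21.6 CPM in labelled KO clones, against 4.86 and 7.88 CPM in WT clones (2.21 ± 0.33, adjusted p = 0.0118). The desmosomal cadherin Dsg3 had 267 and 331 CPM in labelled KO clones, against 130.5 and 91.2 CPM in WT clones (1.43 ± 0.29, adjusted p = 0.0295). The keratin Krt80 was lower, with 16.4 and 22.7 CPM in labelled KO clones, against 49 and 43.7 CPM in WT clones (-1.24 ± 0.23, adjusted p = 0.0206). Krt1, a keratin of epidermis, had 0.202 and 0.156 CPM in labelled KO clones, against 1.03 and 1.08 CPM in WT clones (-2.51 ± 0.52, adjusted p = 0.0306). Both envelope genes rose while both keratins fell. The Sprr2d and Tgm1 calls held with any 1 of the 4 EM libraries left out, at an adjusted p of up to 0.0498. Bcl11b missed the threshold without labelled KO2 (adjusted p up to 0.0565). Dst lost its call without labelled KO1 or labelled KO2 (adjusted p up to 0.079). Klk8 missed the threshold without labelled KO1 or WT1 (adjusted p up to 0.054). Krt14 lost its call without labelled KO2 or WT1 or WT2 (adjusted p up to 0.186). Krt80, Dsg3 and Krt1 missed the threshold whichever EM library was left out (adjusted p up to 0.188). Krt14 was not called over the 4 EM libraries alone (adjusted p = 0.052), nor was Krt1 with DESeq2 (0.0631).

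Integrins bind matrix at the basal side of epithelium. Of 16 tested, 3 rose and none fell (median 0.04). The collagen receptor subunit Itga2 had 104 and 87.4 CPM in labelled KO clones, against 17.6 and 10.8 CPM in WT clones (2.75 ± 0.37, adjusted p = 0.00904). Itga1, also a collagen receptor subunit, had 6.31 and 7.82 CPM in labelled KO clones, against 1.34 and 1.31 CPM in WT clones (2.41 ± 0.33, adjusted p = 0.00966). Itgb8, whose integrin activates latent TGF-beta, had 15.9 and 25.1 CPM in labelled KO clones, against 3.12 and 3.85 CPM in WT clones (2.56 ± 0.52, adjusted p = 0.0294). The nearest clones of the labels lay 4.97-fold apart for Itga2, 4.72-fold for Itga1 and 4.12-fold for Itgb8. Of 36 matrix and basement membrane genes, 7 rose and 2 fell (median 0.26). Col12a1, a fibril-associated collagen, had 14.7 and 23.1 CPM in labelled KO clones, against 3.3 and 4.03 CPM in WT clones (2.37 ± 0.29, adjusted p = 0.00744). Agrn, a basement membrane proteoglycan, had 889 and 999 CPM in labelled KO clones, against 604 and 669 CPM in WT clones (0.57 ± 0.12, adjusted p = 0.0329). The laminin chain Lama5 had 414 and 345 CPM in labelled KO clones, against 583 and 628 CPM in WT clones (-0.67 ± 0.13, adjusted p = 0.0234). The collagen VI chains, also used as fibroblast markers, were at 0 counts in WT clones: Col6a1 had 5.61 and 0.835 CPM in labelled KO clones, against 0 and 0 CPM in WT clones, at least 47.5-fold higher (adjusted p = 0.0283). Col6a2 had 0.657 and 0.365 CPM in labelled KO clones, against 0 and 0 CPM in WT clones, at least 7.48-fold higher (adjusted p = 0.03). The laminin chain Lama4 had 0.303 and 0.678 CPM in labelled KO clones, against 0 and 0 CPM in WT clones, at least 7.11-fold higher (adjusted p = 0.0328). The bound of Col6a1 rests mainly on labelled KO1, which held 111 of its counts, while labelled KO2 held 16. The fitted log2 values, which are no bounds, ranged over 7.08 to 9.82 for Col6a1, moving most without labelled KO1 or labelled KO2, and over 5.64 to 6.78 for Lama4 (labelled KO2). The fibroblast marker sum ran the other way, lower in labelled KO clones as given above, and the difference lay mostly in Fbln1, with 98.7 and 156 CPM in labelled KO clones, against 244 and 278 CPM in WT clones. Fn1 overlapped between the labels, and Col1a1, Col1a2, Col3a1, Dcn and Lum had at most 2 counts in any of the 4 clones. The part of these markers in the values above was not tested. Col12a1 kept its call whichever EM library was left out, with an adjusted p of up to 0.0445. Itga2 lost its call without labelled KO1 (adjusted p up to 0.0532). Itga1 missed the threshold without labelled KO2 or WT1 or WT2 (adjusted p up to 0.0663). Col6a1 lost its call without labelled KO1 or WT1 or WT2 (adjusted p up to 0.102). Itgb8, Lama5, Col6a2, Lama4 and Agrn missed the threshold whichever EM library was left out (adjusted p up to 0.198). With the clone as a random effect Itgb8 (adjusted p = 0.0573), Col6a1 (0.0649) and Lama4 (0.0618) were not called, nor were Agrn (0.0508) and Col6a1 (0.0656) over the 4 EM libraries alone.

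Metalloproteases remodel that matrix; 6 of 22 genes of the enzymes and their inhibitors rose and 3 fell (median 0.37, or 0.23 with genes absent from a label at their bound). Adamts9, which cleaves proteoglycans, had 55.1 and 71.5 CPM in labelled KO clones, against 4.95 and 5.72 CPM in WT clones (3.57 ± 0.20, adjusted p = 0.0027). Mmp15, a membrane-anchored protease, had 1238 and 1021 CPM in labelled KO clones, against 547 and 658 CPM in WT clones (0.91 ± 0.17, adjusted p = 0.0246). Mmp2, a gelatinase, had 4.39 and 6.57 CPM in labelled KO clones, against 0.491 and 0.281 CPM in WT clones (3.8 ± 0.55, adjusted p = 0.0109). The nearest clones were 9.63-fold apart for Adamts9 and 8.95-fold for Mmp2. Mmp11 had 6.41 and 7.3 CPM in labelled KO clones, against 1.96 and 2.06 CPM in WT clones (1.77 ± 0.25, adjusted p = 0.00991). Its exons overlap those of Chchd10 on the other strand, a gene with more counts. Adamts15, of the same family as Adamts9, had 1.57 and 1.67 CPM in labelled KO clones, against 0.134 and 0.422 CPM in WT clones (2.52 ± 0.52, adjusted p = 0.0295). Adam9, a membrane metalloprotease, had 141 and 142 CPM in labelled KO clones, against 217 and 222 CPM in WT clones (-0.63 ± 0.14, adjusted p = 0.0342). Without any single EM library, Adamts9 still passed (adjusted p up to 0.0143). Mmp2 missed the threshold without labelled KO2 or WT2 (adjusted p up to 0.0642). Adamts15 lost its call without labelled KO1 or labelled KO2 or WT1 (adjusted p up to 0.133). Mmp11, Mmp15 and Adam9 missed the threshold whichever EM library was left out (adjusted p up to 0.167). The Adamts15 value moved past 1.5-fold without WT1 or WT2 (range 1.93 to 3.53), and it was not called over the 4 EM libraries alone (adjusted p = 0.0597).

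For cell adhesion and polarity, 2 of 23 genes of epithelial and mesenchymal state rose and 3 fell (median 0.06). E-cadherin, Cdh1, had 1429 and 1626 CPM in labelled KO clones, against 858 and 842 CPM in WT clones (0.85 ± 0.13, adjusted p = 0.0144). P-cadherin, Cdh3, had 282 and 308 CPM in labelled KO clones, against 203 and 206 CPM in WT clones (0.53 ± 0.13, adjusted p = 0.0481). Ovol1, a repressor of mesenchymal genes, had 5.81 and 10.1 CPM in labelled KO clones, against 29.4 and 23.8 CPM in WT clones (-1.74 ± 0.28, adjusted p = 0.0151). The classical cadherins were thus higher while this repressor was lower. Rab25, a GTPase of apical recycling, had 109.5 and 128 CPM in labelled KO clones, against 189.6 and 191 CPM in WT clones (-0.68 ± 0.14, adjusted p = 0.0306). Crb3, an apical polarity protein, had 27.6 and 26.9 CPM in labelled KO clones, against 37.9 and 41 CPM in WT clones (-0.53 ± 0.11, adjusted p = 0.0326). Of 41 axon guidance genes, many of which also act in epithelium, 3 rose and 4 fell (median -0.21). The Slit receptors Robo1 and Robo2 were higher: Robo1 had 163 and 167 CPM in labelled KO clones, against 92.1 and 80.2 CPM in WT clones (0.94 ± 0.14, adjusted p = 0.0126). Robo2 had 0.859 and 0.991 CPM in labelled KO clones, against 0 and 0 CPM in WT clones, at least 13.5-fold higher (adjusted p = 0.00966). The ephrin Efna1 was lower, with 65.6 and 48.8 CPM in labelled KO clones, against 137 and 113 CPM in WT clones (-1.13 ± 0.16, adjusted p = 0.0109). Efna3, also an ephrin, had 9.09 and 8.5 CPM in labelled KO clones, against 18.4 and 21.5 CPM in WT clones (-1.18 ± 0.26, adjusted p = 0.0373). The netrin receptor Unc5b had 15.4 and 10.9 CPM in labelled KO clones, against 30.2 and 42 CPM in WT clones (-1.46 ± 0.24, adjusted p = 0.0164). The semaphorin co-receptor Nrp2 had 26.8 and 22.5 CPM in labelled KO clones, against 42.1 and 54.4 CPM in WT clones (-0.97 ± 0.23, adjusted p = 0.0421). Efna1 lost its call without labelled KO2 (adjusted p up to 0.0614). Ovol1 missed the threshold without labelled KO1 or WT1 (adjusted p up to 0.0703). Robo2 lost its call without labelled KO1 or labelled KO2 (adjusted p up to 0.0614). Robo1 and Unc5b missed the threshold without labelled KO1 or labelled KO2 or WT2 (adjusted p up to 0.107). Cdh1, Rab25, Crb3, Cdh3, Efna3 and Nrp2 lost their calls whichever EM library was left out (adjusted p up to 0.237). Cdh3 was not called with DESeq2's size factors (adjusted p = 0.0504), nor Nrp2 with the clone as a random effect (0.0697).

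Transcripts of glycolysis, which breaks glucose down to pyruvate, and of the hypoxia response that induces it were mostly lower in labelled KO clones. Of 29 genes tested, none rose and 13 fell, 28 had a lower value, and the median was -0.69. At an unadjusted p under 0.05 in edgeR 22 were lower and 0 higher, and DESeq2 called 19 lower and 0 higher. The sum was 10614 and 11718 CPM in labelled KO clones, against 18036 and 16500 CPM in WT clones. Gpi1, the isomerase of the second step, had 1113 and 1076 CPM in labelled KO clones, against 2151 and 2264 CPM in WT clones (-1.01 ± 0.16, adjusted p = 0.013). Of the phosphofructokinases, which catalyse the committed step, Pfkm had 32.1 and 29.8 CPM in labelled KO clones, against 57.3 and 59.1 CPM in WT clones (-0.91 ± 0.10, adjusted p = 0.00615). Pfkl had 239.6 and 259 CPM in labelled KO clones, against 367 and 344 CPM in WT clones (-0.51 ± 0.10, adjusted p = 0.0262). Aldoc, an aldolase, had 73.1 and 98 CPM in labelled KO clones, against 171 and 179 CPM in WT clones (-1.03 ± 0.20, adjusted p = 0.0248). These enzymes were each lower in both labelled KO clones than in either WT clone. P4ha1, a collagen prolyl hydroxylase induced by hypoxia, had 83.7 and 70.6 CPM in labelled KO clones, against 197 and 182 CPM in WT clones (-1.30 ± 0.14, adjusted p = 0.00615). Bnip3, a mitophagy gene induced by hypoxia, had 37.7 and 31.7 CPM in labelled KO clones, against 76.9 and 55.9 CPM in WT clones (-0.94 ± 0.17, adjusted p = 0.0214). The P4ha1 call held with any 1 of the 4 EM libraries left out, at an adjusted p of up to 0.0498. Pfkm missed the threshold without labelled KO2 (adjusted p up to 0.0504). Bnip3 lost its call without labelled KO1 or labelled KO2 or WT1 (adjusted p up to 0.137). Gpi1, Aldoc and Pfkl missed the threshold whichever EM library was left out (adjusted p up to 0.153). Exons of Pfkm overlap Senp1 on the other strand.

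The cholesterol synthesis genes were lower as a group but few passed the test: of 25, none rose, 3 fell and all 25 had a lower value, with a median of -0.60. At an unadjusted p under 0.05 in edgeR 12 were lower, and DESeq2 called 9 lower and 0 higher. Insig1 (ENSMUSG00000045294, chromosome 5, 28071363 to 28078662), the sterol sensor that holds back SREBP and is itself an SREBP target, had 8.08 and 13.1 CPM in labelled KO clones, against 82.4 and 82.3 CPM in WT clones (-2.96 ± 0.22, adjusted p = 0.00273). Sc5d, a late enzyme of the pathway, had 138 and 156 CPM in labelled KO clones, against 227 and 223 CPM in WT clones (-0.61 ± 0.12, adjusted p = 0.0262). Stard4, a cholesterol transfer protein, had 34.5 and 56.7 CPM in labelled KO clones, against 88.7 and 101 CPM in WT clones (-1.06 ± 0.24, adjusted p = 0.0373). For Insig1 the nearest clones were 6.28-fold apart, against 1.43-fold for Sc5d and 1.56-fold for Stard4. Insig1 kept its call whichever EM library was left out, with an adjusted p of up to 0.0134. Stard4 lost its call without labelled KO1 or WT1 or WT2 (adjusted p up to 0.152). Sc5d missed the threshold whichever EM library was left out (adjusted p up to 0.149). Stard4 was not called over the 4 EM libraries alone (adjusted p = 0.057).

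Of 31 targets of p53, the DNA damage-responsive transcription factor, 1 rose and 8 fell (median -0.26). Btg2, an antiproliferative gene, had 44.8 and 40 CPM in labelled KO clones, against 95.1 and 109 CPM in WT clones (-1.27 ± 0.11, adjusted p = 0.00464). Pmaip1, the cell death protein Noxa, had 37.6 and 32.4 CPM in labelled KO clones, against 92.6 and 91.5 CPM in WT clones (-1.40 ± 0.24, adjusted p = 0.017). Sesn1, a stress-induced sestrin, had 27.9 and 31.7 CPM in labelled KO clones, against 50.9 and 49.1 CPM in WT clones (-0.75 ± 0.12, adjusted p = 0.0164). Each of these was lower in both labelled KO clones. Zmat3, a further target, had 75 and 62.7 CPM in labelled KO clones, against 116 and 124 CPM in WT clones (-0.80 ± 0.15, adjusted p = 0.0229). Ccng1, which encodes cyclin G1, had 267 and 248 CPM in labelled KO clones, against 382 and 463 CPM in WT clones (-0.72 ± 0.14, adjusted p = 0.0235). Ddit4l, an inhibitor of mTOR, went the other way with 17.8 and 16.6 CPM in labelled KO clones, against 3.48 and 4.64 CPM in WT clones (2.08 ± 0.36, adjusted p = 0.0175). Without any single EM library, Btg2 still passed (adjusted p up to 0.0361). Ccng1 missed the threshold without labelled KO1 or labelled KO2 or WT2 (adjusted p up to 0.147). Sesn1, Pmaip1, Ddit4l and Zmat3 lost their calls whichever EM library was left out (adjusted p up to 0.137).

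Antioxidant genes and targets of NRF2 moved both ways: of 34, 3 rose and 5 fell (median -0.27). Cat, the catalase that degrades hydrogen peroxide, had 715 and 877 CPM in labelled KO clones, against 209 and 256 CPM in WT clones (1.78 ± 0.17, adjusted p = 0.00498). Gpx2, a glutathione peroxidase of epithelia, had 329 and 436 CPM in labelled KO clones, against 182 and 178 CPM in WT clones (1.09 ± 0.15, adjusted p = 0.00966). Akr1b8, an aldo-keto reductase, had 36.9 and 30.1 CPM in labelled KO clones, against 4.73 and 5.96 CPM in WT clones (2.65 ± 0.25, adjusted p = 0.00495). Glutathione transferases were lower: Gstm1 had 14.5 and 19.5 CPM in labelled KO clones, against 74.6 and 77.7 CPM in WT clones (-2.16 ± 0.15, adjusted p = 0.00273). Gstp1 had 46 and 52.6 CPM in labelled KO clones, against 86.9 and 88.4 CPM in WT clones (-0.83 ± 0.11, adjusted p = 0.00868). Gclm, a subunit of the enzyme that starts glutathione synthesis, had 76.1 and 83.2 CPM in labelled KO clones, against 152 and 166 CPM in WT clones (-1.0 ± 0.10, adjusted p = 0.00504). Cat, Gpx2 and Akr1b8 were thus higher and Gstm1, Gstp1 and Gclm lower. When each of the 4 EM libraries was left out in turn, Gstm1, Akr1b8, Cat and Gclm passed every time, at an adjusted p of up to 0.0375. Gstp1 lost its call without labelled KO1 (adjusted p up to 0.0614). Gpx2 missed the threshold without labelled KO2 or WT2 (adjusted p up to 0.0568).

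Some lists held no called gene. All 26 genes of G2 and mitosis had a higher value in labelled KO clones, with a median of 0.50, yet none was called: Mki67 had 97.8 and 129.7 CPM in labelled KO clones, against 84.1 and 53.4 CPM in WT clones (0.73 ± 0.48, adjusted p = 0.372). Top2a had 120.4 and 163 CPM in labelled KO clones, against 110.3 and 80.8 CPM in WT clones (0.57 ± 0.49, adjusted p = 0.501). The spread was wide among clones of a label, with labelled KO2 highest and WT2 lowest for both genes. None of the 26 G1/S genes was called (median 0.22); Ccnd1, cyclin D1, had 301 and 357 CPM in labelled KO clones, against 472 and 623 CPM in WT clones (-0.73 ± 0.21, adjusted p = 0.0696). Ccnd2 had 367 and 419 CPM in labelled KO clones, against 489.9 and 495 CPM in WT clones (-0.32 ± 0.21, adjusted p = 0.36). None of 15 claudins and tight junction genes was called either (median -0.09). Cldn4 had 1492 and 1380.2 CPM in labelled KO clones, against 1279 and 1785 CPM in WT clones (-0.09 ± 0.20, adjusted p = 0.808). F11r had 498 and 469 CPM in labelled KO clones, against 610.1 and 671 CPM in WT clones (-0.41 ± 0.14, adjusted p = 0.112). Of 11 myoepithelial contractile genes none was called (median -0.44), and the most abundant, Tpm1, had 578 and 594 CPM in labelled KO clones, against 480.4 and 577 CPM in WT clones (0.15 ± 0.16, adjusted p = 0.6). Tpm2, also a tropomyosin, had 239 and 239 CPM in labelled KO clones, against 222 and 211 CPM in WT clones (0.14 ± 0.17, adjusted p = 0.632). At an unadjusted p under 0.05 in edgeR, 1 of the G2 and mitosis genes was higher, and DESeq2 called 0. For G1/S genes 2 were higher and 1 lower at that p, and DESeq2 called 1, lower. For claudins and tight junctions 1 was higher and 3 lower, with 1 higher and 2 lower in DESeq2. For contractile genes 1 was higher and 1 lower in both. Values that miss the threshold do not show that the labels are alike in these groups.

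**Figure D4:**
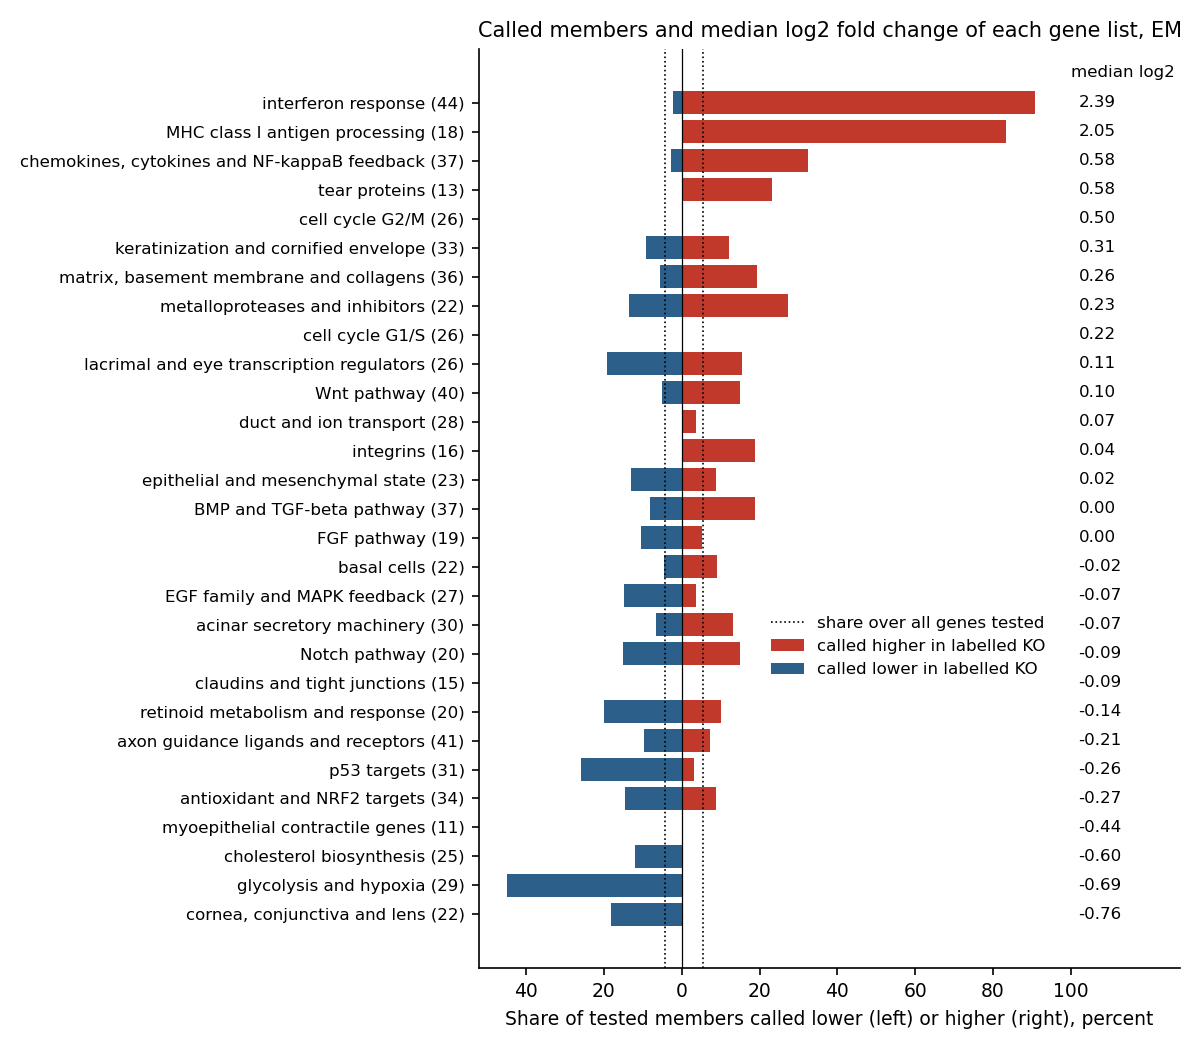
Share of the tested members of each gene list called lower (blue, left) or higher (red, right) in labelled KO clones in EM, with the number tested after each name and the median log2 fold change, genes absent from a label at their bound, at the right. Dotted lines mark the shares over all genes tested, 4.41% lower and 5.38% higher; the interferon and MHC class I lists reach furthest to the right and glycolysis furthest to the left.

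By position, chromosome 19 differed from the others. Of its 494 genes tested, 57 rose (11.5%) and 7 fell (1.42%), 77.3% had a higher value, and the median was 0.31; on the 19 other chromosomes medians lay between -0.12 and 0.05 and 3.59% to 7.39% of genes rose. Against the mean of the WT clones, the chromosome's median was 0.24 in labelled KO1 and 0.38 in labelled KO2, and -0.11 in WT1 and 0.11 in WT2. The shift was present along its length, with medians of 0.28 to 0.38 in 5 equal blocks of genes. In DM the median was 0.29. Of the 40 interferon genes that rose, 4 lie on this chromosome, Ifit2 among them. Dtx4 and Lrp5, higher in labelled KO clones, and Aldh1a7, Gstp1 and Ovol1, lower in them, also lie on it. When its genes were left out of the fit, 1356 genes were called, a check chosen after these medians were seen. On chromosome 18 the medians were -0.11 and -0.10 in labelled KO1 and KO2, close to WT2 at -0.12, while WT1 stood at 0.12. The WT values mirror each other because each is taken against the mean of the WT clones.

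**Figure D5:**
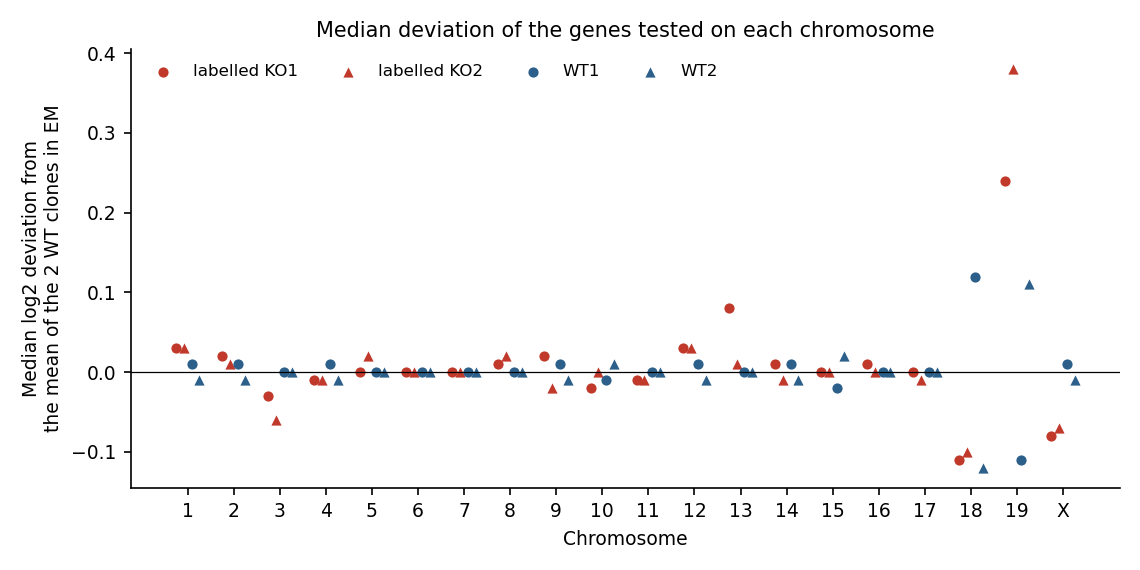
Median over the genes tested on each chromosome of the log2 difference of each clone in EM from the mean of the 2 WT clones, so that WT1 and WT2 mirror each other. Labelled KO1 and KO2 (red) stand at 0.24 and 0.38 on chromosome 19, and WT1 and WT2 (blue) at -0.11 and 0.11.

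The same clones in DM gave 781 called genes (5.47%), 341 higher (2.39%) and 440 lower (3.08%). Of the 769 genes that rose in EM, 217 also rose in DM (28.2%, or 63.6% of the DM rises), 722 had a higher value and none fell. Of the 630 that fell, 240 also fell in DM (38.1%, or 54.5% of the DM falls), 601 had a lower value and none rose. The median log2 fold change of the EM rises was 1.31 in EM and 0.69 in DM, and that of the falls was -0.97 in EM and -0.67 in DM. EM and DM cultures of a clone share that clone, so these counts describe the same 4 clones again. A test of the difference between the media called 0 genes with edgeR, with 1126 at an unadjusted p under 0.05 (7.88%), and 195 with DESeq2.

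All 10 of the largest rises had both labelled KO clones above both WT clones in DM too, and 9 were called there. Of the largest falls, 9 lay apart and 8 were called. Over all genes called in EM, 631 of 769 rises and 544 of 630 falls lay apart the same way in DM. Slfn1 had 49.5 and 77.4 CPM in labelled KO clones, against 8.05 and 1.76 CPM in WT clones in DM (3.67 ± 0.62, adjusted p = 0.0279), and Flt1 had 6.06 and 2.55 CPM in labelled KO clones, against 198 and 205 CPM in WT clones (-5.54 ± 0.49, adjusted p = 0.00872). Slfn1 was detected in the WT clones in DM, and Flt1 was higher in WT clones in DM than in EM. In the interferon list 39 of the 40 EM rises lay apart in DM and 9 were called, with a median of 0.95 over the list. Rsad2 had 357 and 558 CPM in labelled KO clones, against 207 and 171 CPM in WT clones (1.27 ± 0.27, adjusted p = 0.0462). The labelled KO level was near that in EM while WT clones were higher than in EM, where 418 and 346 CPM in labelled KO clones, against 28 and 18.4 CPM in WT clones had been counted. Inhba had 761 and 751 CPM in labelled KO clones, against 499 and 339.8 CPM in WT clones in DM (0.85 ± 0.19, adjusted p = 0.0482), high under both labels, and Insig1 had 10.2 and 9.03 CPM in labelled KO clones, against 53.3 and 51.1 CPM in WT clones (-2.44 ± 0.22, adjusted p = 0.00872), with a gap like that in EM.

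The uncloned EM lines give a further set of organoids without the label. Their table was scaled apart from that of the clones and their line numbers name no clone, so levels are only set side by side, as CPM of total counts, with no test. Both labelled KO clones lay above all 3 uncloned lines for 603 of 756 genes called higher (79.8%, against 35.4% of all genes in both tables), and below them for 478 of 617 called lower (77.5%, against 36.8%). Of all genes in both tables, 72.3% lay beyond the uncloned lines one way or the other. The 10 largest rises and 10 largest falls all lay beyond them in the called direction. All these genes were called with the same labelled KO libraries, so the choice itself favours such a position. The shares are therefore no independent check of the calls. Flt1 had 374 to 482 CPM in uncloned lines and A2ml1 796 to 954 CPM, both on the side of the WT clones. For the interferon response genes Ifit2, Gbp3, Rsad2, Oas1g, Ddx58 and Ifi27 the uncloned lines lay between the labels. There Ifit2 had 35.6 to 48.3 CPM, Gbp3 56.9 to 70.7 CPM and Rsad2 36.5 to 73.7 CPM, while Oas1g had 15.6 to 27.8 CPM, Ddx58 214 to 233 CPM and Ifi27 102 to 116 CPM. Pax6 had 246 to 326 CPM there. Inhba had 5.2 to 9.06 CPM and Gstm1 17.4 to 28.1 CPM. The Inhba level was near that of the WT clones, whereas for Gstm1 it was near that of the labelled KO clones. Cdh1 (1456 to 1673 CPM), Wnt6 (0.341 to 0.944 CPM), Six2 (31.9 to 38.1 CPM) and Wfdc18 (1918 to 2839 CPM) also lay nearer the labelled KO clones. How many called genes lay nearer either label was not counted. For some genes the uncloned lines differed from every clone in EM. Mki67 had 571 to 678 CPM there, against 53.4 to 129.7 CPM in the clones, and Nnt, given below, differed too. These lines are thus no matched reference for the WT label.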

How the data were processed

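Polyadenylated RNA of organoids was sequenced with a stranded kit, per the labels' protocols. Per the submitters' processing notes, STAR and featureCounts were used on GRCm38, and the authors deposited whole-number counts per gene, not normalised; no source used here gives versions, the annotation or the strand setting of the counting. Of 55487 gene IDs, 55227 matched GENCODE M21 and 27383 had no counts. Whether 1 read shared by near-identical genes was counted is not given either, so values of Slfn1, Ifi206, Ifi208, Skint3, Oas1g, Gbp3, Rdh16, Sprr2d and the H2 genes are uncertain. Of 161 genes chosen by the naming rule, 31 overlap exons on the other strand, 6 of them with a gene holding at least 10% as many counts.

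Counts of all 8 clone libraries (18282059 to 22500534 each) were fitted in R 4.3.3 with edgeR 4.0.16: filterByExpr, TMM scaling, a mean per group, quasi-likelihood tests with 4 residual degrees of freedom and Benjamini-Hochberg adjustment, called under 0.05. The biological coefficient of variation was 0.234. The groups follow the labels. The fit has no term for the clone, so EM and DM libraries of a clone count as independent. Deviations from the label mean correlated between EM and DM at 0.51 for labelled KO1 and 0.6 for WT1. SEs were derived from each test's F and the log2 fold change. Where a label had 0 counts, the fold is a bound from 3 counts over the group, and with 1 to 3 counts an exact 95% Poisson interval is given; both cover counting error only. The scripts were tested on simulated counts with known changes.

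The 10 largest rises and falls are called genes with no overlap and a mean of at least 10 CPM under a label, without predicted or unnamed genes. From each list, all called members were named where there were at most 6, otherwise the 6 with the smallest p, and for lists without calls the 2 with the highest mean. Genes so chosen from the lists of other cell types are covered by those lists' sums unless named, and 1 other gene is not reported here. The lists, members and alternatives were chosen with earlier results of these data known, and leaving out chromosome 19 was added after seeing its values. Alternatives were DESeq2 1.42.0 and its size factors, total-count scaling, limma 3.58.1 with voom and the clone as a random effect (correlation 0.309), no filter, the 4 EM libraries alone, each EM library left out, and a replicate block. Promoters are from RefSeq (GRCm38.p6). Gland and uncloned DM libraries were not used here.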

Additional observations from a re-analysis of the deposited data

Results flagged for a closer look

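Wfdc2 lay apart in opposite directions in the 2 media. In EM it had 2486 and 3000.2 CPM in labelled KO clones, against 1314 and 1154 CPM in WT clones, and in DM it had 452 and 712 CPM in labelled KO clones, against 759.7 and 857 CPM in WT clones. The log2 fold change was 1.15 ± 0.23, adjusted p = 0.0285 in EM and -0.47 ± 0.23, adjusted p = 0.262 in DM. The difference between them, EM minus DM, was 1.63, which did not pass edgeR's test (adjusted p = 0.326).

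Sesn1 did the reverse. In EM it had 27.9 and 31.7 CPM in labelled KO clones, against 50.9 and 49.1 CPM in WT clones, and in DM it had 18.9 and 21.1 CPM in labelled KO clones, against 15.6 and 17 CPM in WT clones. The log2 fold change was -0.75 ± 0.12, adjusted p = 0.0164 in EM and 0.30 ± 0.13, adjusted p = 0.205 in DM, and their difference of -1.05 did not pass the test (adjusted p = 0.307). With 2 clones a label, libraries lie apart often, here for 61.6% of genes in EM.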

How the results depend on the processing

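The 1399 calls (769 higher, 630 lower) became 1392 with DESeq2's size factors, 1378 with total-count scaling, 1418 with limma-voom and the clone as a random effect, 1449 over the 4 EM libraries alone and 1356 without chromosome 19. DESeq2 called 2222 (1138 higher, 1084 lower), and without a filter on low counts edgeR called 2947 (1491 higher, 1456 lower). With 1 EM library left out, 175 to 494 genes were called, 119 to 311 higher and 56 to 183 lower. These fits have 1 clone under a label, which is assumed to vary like the other groups. Every one of the 1399 genes kept its direction in each alternative that tested it, 1380 of them over the 4 EM libraries alone and 1335 without chromosome 19. The alternatives refit the counts in which these genes were called, so a kept direction is no independent support. Among the 144 calls chosen by the naming rule, 105 were lost without at least 1 EM library. In the paired fit with a replicate block, 1740 genes were called (932 higher, 808 lower), and 1351 of the 1399 calls were kept. The numbers were not taken as pairs, since deviations of labelled KO1 and WT1 from their label means correlated at 0.01 over genes in EM. Among the named genes, 1 call (Cdh3, adjusted p = 0.0513) was lost under the block and 2 were gained. Genes with few counts are limited by depth: 385 of those tested had at most 3 counts under a label, and their folds are bounds or ratios with wide intervals.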

Other observations

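Receptors of the interferons, looked up after the interferon values were seen and given without a test, did not all lie the same way in EM. Ifngr1, the ligand-binding chain of the interferon-gamma receptor, had 369.6 and 334 CPM in labelled KO clones, against 197 and 195 CPM in WT clones. Ifnlr1, the receptor chain of interferon-lambda, had 12.8 and 13.5 CPM in labelled KO clones, against 19.1 and 28.1 CPM in WT clones. Ifngr1 was higher in both labelled KO clones and Ifnlr1 lower in both. Ifngr2, the other chain of the interferon-gamma receptor, had 202 and 223 CPM in labelled KO clones, against 232 and 224 CPM in WT clones, with labelled KO2 close to WT2. Ifnar1, a chain of the type I interferon receptor, had 91.5 and 94.8 CPM in labelled KO clones, against 86.9 and 99 CPM in WT clones, and Ifnar2, its partner chain, had 37.2 and 43.8 CPM in labelled KO clones, against 29.3 and 65.6 CPM in WT clones. Both type I chains overlapped between the labels.

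Nnt, the nicotinamide nucleotide transhydrogenase of mitochondria, had 0.303 and 0 CPM in labelled KO clones, against 0.178 and 0.563 CPM in WT clones, while the uncloned lines in EM had 14.4 to 15.5 CPM of total counts. All 4 clones were thus under 1 CPM. Mitochondrially encoded genes took 1.22% and 1.17% of counts in labelled KO clones, against 1.67% and 1.77% in WT clones.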
